A study of Homo sapiens with 42 samples.

Results

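A set of 40 genes of ribosome biogenesis was followed through the response of acute myeloid leukaemia cell lines to decitabine, a cytidine analogue that is built into DNA and traps DNA methyltransferases. The genes were taken by symbol from the name column of the deposited table, which holds 60240 genes, and all 40 were found there. All 40 also passed the filter for testing, 3 or more libraries with a value of 10 or higher, as 22168 genes of the table did. The 5 lines were SKM-1, MOLM-13, MOLM-14, KG-1 and OCI-AML3, and each is labelled as wild type. MOLM-13 and MOLM-14 are sister lines, so a count over lines is not a count over unrelated leukaemias. Cells were seeded at 100000 cells per mL, then given either 100 nM decitabine on days 0, 1 and 2 or the solvent DMSO, and harvested at 72 h. There were 3 libraries per line and treatment, 30 in all. The labels do not say whether the 3 libraries of a group came from separate cultures, so a p-value reflects only how these libraries vary, and that variation may be technical. Each line is a single established culture and stands for no other leukaemia, and OCI-AML3 carries a mutant NPM1 allele. The labels also list OCI-AML2 and THP-1, which were not analysed here.

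Ribosomes are assembled in the nucleolus. RNA polymerase I copies the ribosomal DNA into one long precursor, small nucleolar ribonucleoproteins modify it, and a long series of assembly factors, helicases and nucleases folds, cuts and packs it with ribosomal proteins into a small and a large subunit. MYC, a transcription factor that is high in many leukaemias, is known to drive many of these genes, often through the E-box CACGTG in their promoters. Growing cells spend much of their energy on this pathway, and it is turned down when cells leave the cell cycle.

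Values are the authors' normalised counts per gene. A difference is given as log2 fold change, decitabine minus DMSO, on the log2(value + 1) scale with its standard error, and the mean of the 5 line differences is called the panel mean. A gene is called lower or higher where limma's Benjamini-Hochberg adjusted p over all 22168 genes was below 0.05. A value is relative to the other RNA of its library, so fewer cells of a kind and less RNA per cell cannot be told apart. Depth differed between lines: MOLM-13 and SKM-1 had 42.9 to 75 estimated reads per library (in units of 1e+06), against 1.97 to 31.2 in the other 3 lines, where replicate 2 of both arms was shallow (1.97 to 4.59, 6 libraries). PTPRC, SPI1 and CD33, which mark white blood cells of the myeloid lineage, were present in all 5 lines, with medians of the DMSO libraries from 590.2 (CD33 in KG-1) upward. CD14, the classical monocyte receptor, never exceeded 5.36.

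Promoters of 5 of the members named below are shown because the E-box is a known MYC site. They are the members with the largest panel mean for which 120 bases outside every exon of GENCODE 29 lie before the most upstream RefSeq start (GRCh38.p14). Each window is the 120 such bases nearest that start. It ends at the start in UTP20, and 42, 50, 37 and 44 bases short of it in DDX21, TWISTNB, RRP9 and DDX10, where a GENCODE exon begins. The windows run 5′ to 3′ along the gene, with CACGTG in capitals where it occurs. UTP20 holds the motif in its window.
UTP20 (chr12:101279985-101280104, plus strand): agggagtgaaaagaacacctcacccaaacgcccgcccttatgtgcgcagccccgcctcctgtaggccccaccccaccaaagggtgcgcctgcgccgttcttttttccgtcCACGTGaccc
DDX21, TWISTNB, RRP9 and DDX10 do not hold it in theirs.
DDX21 (chr10:68956008-68956127, plus strand, the upstream of 2 listed starts): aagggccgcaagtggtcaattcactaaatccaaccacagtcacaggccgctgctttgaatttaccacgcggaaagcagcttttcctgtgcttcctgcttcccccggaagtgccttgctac
TWISTNB (chr7:19709088-19709207, minus strand, listed as POLR1F): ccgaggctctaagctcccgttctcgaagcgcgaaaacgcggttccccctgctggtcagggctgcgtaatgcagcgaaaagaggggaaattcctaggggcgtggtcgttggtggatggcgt
RRP9 (chr3:51941942-51942061, minus strand): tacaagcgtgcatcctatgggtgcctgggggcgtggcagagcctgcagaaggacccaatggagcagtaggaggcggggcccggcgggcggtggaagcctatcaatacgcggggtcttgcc
DDX10 (chr11:108664905-108665024, plus strand): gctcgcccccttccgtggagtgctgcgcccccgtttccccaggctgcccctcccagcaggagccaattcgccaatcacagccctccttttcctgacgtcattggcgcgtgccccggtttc
The motif starts 10 bases before the listed start of UTP20. RRP9 holds it between the end of the window shown and the listed start, 5 bases before that start, and DDX21 holds it 31 bases before its second listed start. In the RefSeq windows of 300 bases (250 before to 50 after the first listed start), CACGTG, which reads the same on both strands, was present in 11 of the 33 members that have an entry, 33.3%, and in 14, or 42.4%, over any listed start. The members without an entry are MYC, NOLC1, NOP58, RRP12, BOP1, DDX18 and RRS1. Among all tested genes with an entry 9.7% held it at the first listed start (1245 of 12819), and 12.0% at any. The share was 36.1% in a list of 40 other small subunit assembly factors and 32.5% in 44 other large subunit factors, with an entry for 36 and 40 of them. It was 5.4% and 4.0% in the genes of large and small subunit ribosomal proteins, with 37 and 25 entries. Genes of RNA polymerase III held it in 37.5% of 16 entries, and DNA replication genes in 2 of 20. Other genes of RNA polymerase I had 15.4% of 13, exosome genes 15.4% of 13 and a list of H/ACA core and general assembly genes 1 of 10. MYC targets outside ribosome assembly had 42.9% of 21, and MYC partners and antagonists 21.4% of 14. A match is a description of the sequence and not evidence of binding, and its relation to the response was not tested.

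Relative to the other RNA of the library, most members were lower in decitabine-treated cells. On the panel mean 30 of the 40 were called lower and 0 higher (limma, 0 higher also at an unadjusted p below 0.05), against 7.52% lower and 12.0% higher among all genes tested. The members are well expressed, and well expressed genes were called lower more often: among the 7164 genes whose mean reached that of the lowest member, NOP16 (412.3), 19.5% were called lower. The median member stood at -0.32, against 0.06 for all genes and -0.03 for genes at or above that mean. The called members other than MYC stood between 71.2% (DDX21) and 89.8% (RRN3) of the DMSO level, and 40 of 40 panel means were below 0 (39 under quantile normalization and 39 without MOLM-14). SKM-1 carried much of the count: without it 19 of 40 were called, against 4.06% of all genes.

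**Figure D1:**
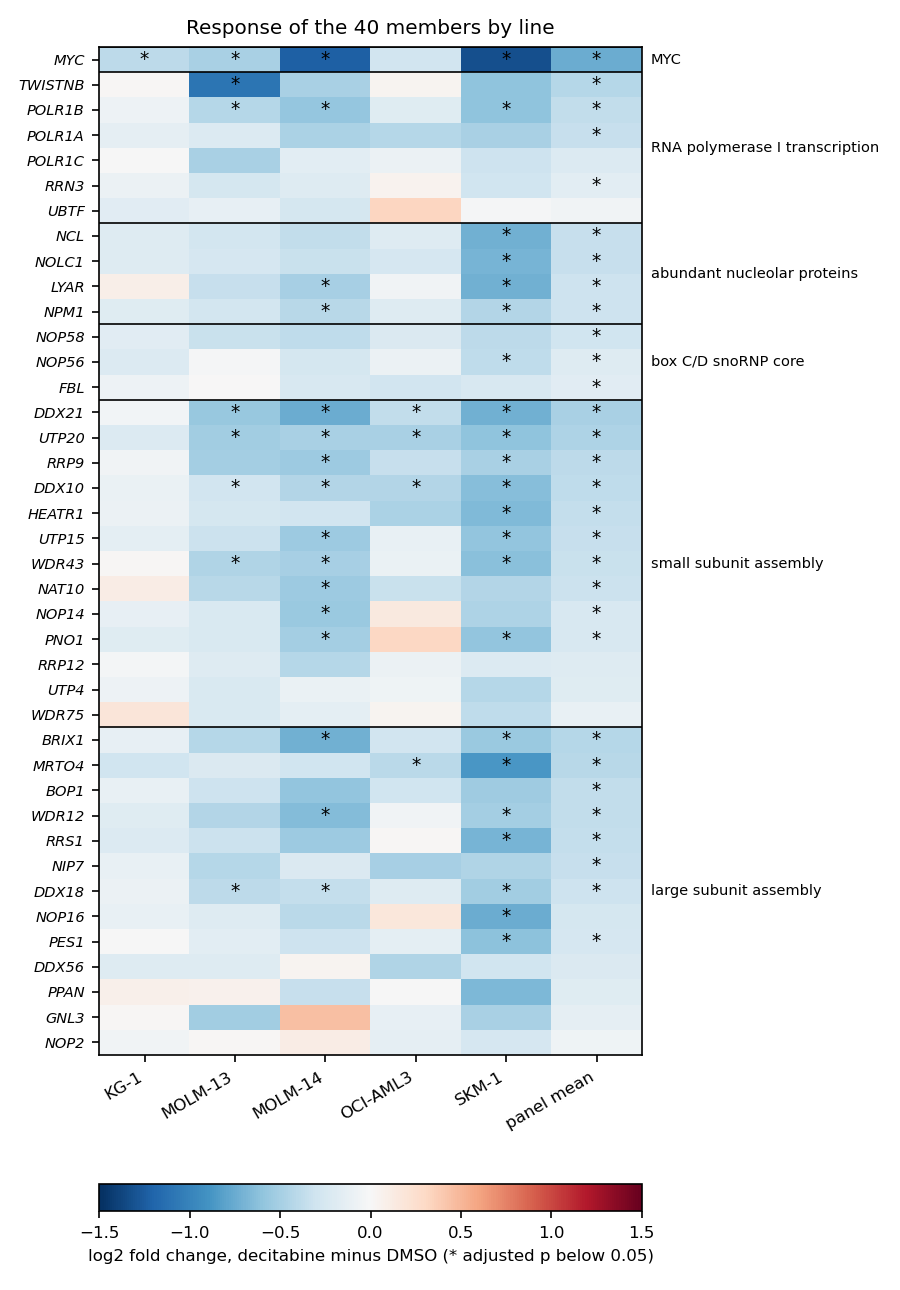
Log2 fold change (colour, decitabine minus DMSO) of each of the 40 members (rows, grouped by role) in each line and on the panel mean (columns), with a star where limma's adjusted p was below 0.05. SKM-1 and MOLM-14 are the darkest columns, with medians of -0.52 and -0.41, and KG-1 the palest, with -0.10.

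MYC fell most of the 40. Its panel mean was -0.74 ± 0.05 (SE, limma, BH-adjusted p = 1.8e-11), a level 59.7% of DMSO, rank 209 from the lowest of 22168 genes. In SKM-1 the values were 5541, 6243 and 5791 with DMSO and 2558, 2286 and 2181 with decitabine. In MOLM-14 they were 8385, 9867 and 7992 with DMSO and 3764, 3666 and 3732 with decitabine. These levels were 39.9% and 42.7% of DMSO. MOLM-13 gave 11032, 10088 and 10389 with DMSO and 7258, 7788 and 7419 with decitabine, KG-1 9421, 11508 and 8827 with DMSO and 7115, 8772 and 6808 with decitabine. OCI-AML3, where MYC was lowest before treatment, gave 2553, 2883 and 3079 with DMSO and 2421, 2299 and 2219 with decitabine. The treated and control libraries did not overlap in any of the 5 lines. The log2 fold changes were -1.32 ± 0.10 in SKM-1, -1.23 ± 0.10 in MOLM-14, -0.49 ± 0.10 in MOLM-13, -0.39 ± 0.10 in KG-1 and -0.29 ± 0.10 in OCI-AML3, and limma called the first 4 (adjusted p = 1.2e-09, 1.43e-08, 0.00804 and 0.0288) but not the last (0.108). The sizes differed between lines (limma F-test, adjusted p = 1.01e-05). The call in KG-1 was lost when that line was fitted alone (limma, adjusted p = 0.403) and without DMSO replicate 2 (0.244) or decitabine replicate 1 (0.117) or 3 (0.148). That in MOLM-13 was lost without decitabine replicate 1 (limma, adjusted p = 0.0537) or DMSO replicate 1 (0.0606).

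MYC acts with MAX and is opposed by the MXD proteins. Of 14 partners and antagonists of MYC, 3 were called higher and 1 lower on the panel mean (limma, median 0.05). Among all genes 12.0% were called higher and 7.52% lower. MYCL, a MYC paralogue, had 0.80 ± 0.16, MXD3 0.49 ± 0.12 and MXD4 0.45 ± 0.12, and the call lower was of HUWE1, a ubiquitin ligase, with -0.21. MAX had -0.17 ± 0.11 and was not called (limma, adjusted p = 0.287). Of 23 known MYC targets outside ribosome assembly 17 were lower and 0 higher (limma, 0 higher at an unadjusted p below 0.05), with a median of -0.32. They included TERT, the catalytic subunit of telomerase (-1.86 ± 0.25), EIF4EBP1, a repressor of cap-dependent translation (-0.61 ± 0.09), and CAD, which starts pyrimidine synthesis (-0.57 ± 0.12).

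**Figure D2:**
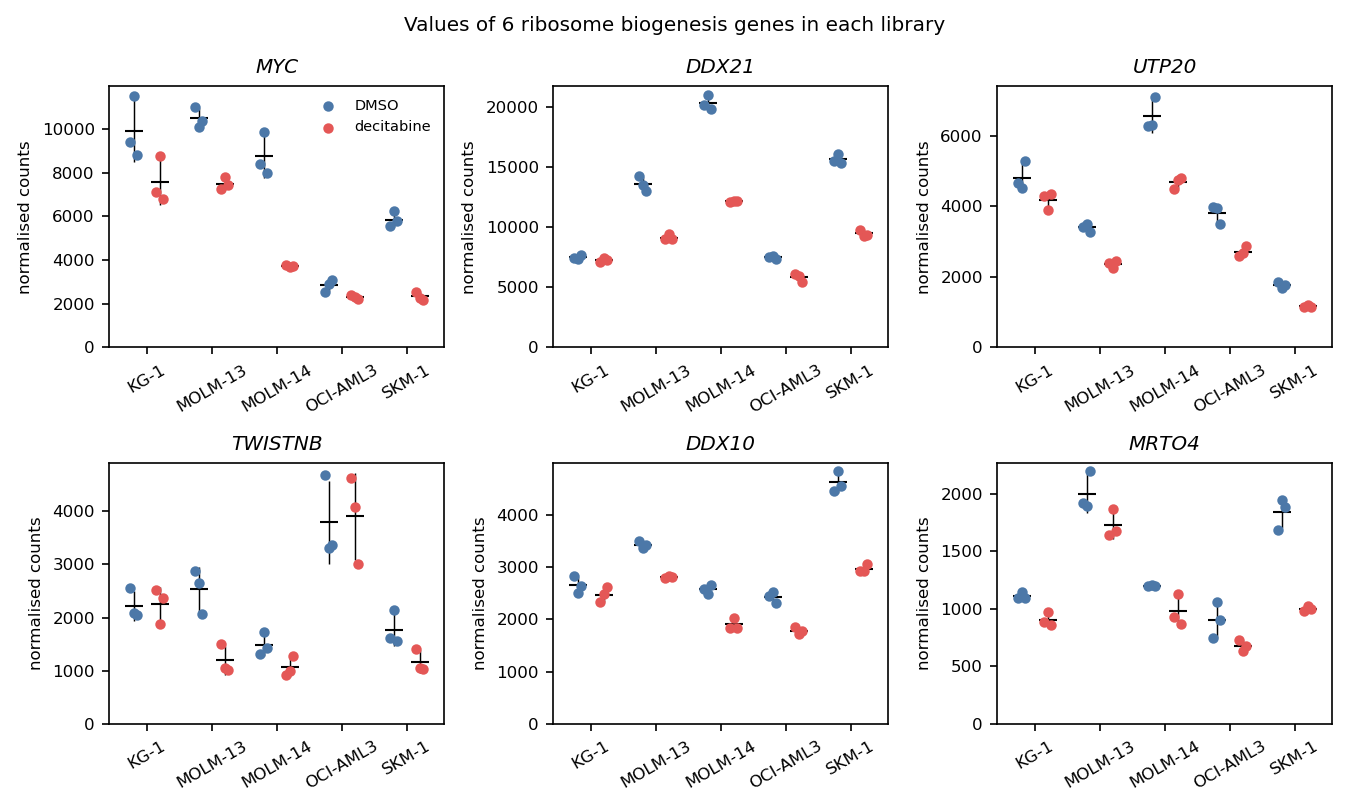
Normalised counts (y axis) of 6 members in each of the 3 DMSO (blue) and 3 decitabine (red) libraries of each line (x axis), with the mean (bar) and SD (line). MYC and UTP20 show no overlap of the arms in any line, while the arms of TWISTNB overlap in KG-1 and OCI-AML3.

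Genes of RNA polymerase I transcription came next in the pathway. Of the 6 members 4 were lower on the panel mean (limma, median -0.28), against 7.52% of all genes. TWISTNB, now named POLR1F, encodes a subunit of the enzyme's stalk (ENSG00000105849.6, chromosome 7 from 19695462 to 19709087 on the minus strand of GRCh38). In MOLM-13 it read 2883, 2645 and 2061 with DMSO and 1511, 1060.4 and 1023 with decitabine, a level 47.1% of DMSO. SKM-1 had 1623, 2136 and 1560.1 with DMSO and 1416, 1049 and 1035 with decitabine, and MOLM-14 1323, 1726 and 1425 with DMSO and 928, 987 and 1286 with decitabine. The arms did not overlap in these 3 lines, but MOLM-13 alone was called (log2 fold change -1.09 ± 0.20, limma, adjusted p = 0.0022). In KG-1 the values were 2552, 2081 and 2043 with DMSO and 2509, 1881 and 2364 with decitabine. OCI-AML3 gave 4687, 3315 and 3365 with DMSO and 4624, 4077 and 3015 with decitabine. The arms overlapped in both lines, with fold changes of 0.01 and 0.04. The panel mean of -0.43 ± 0.09 was therefore a mean over unlike lines (limma F-test, adjusted p = 0.0312), and its call was lost without MOLM-13 (limma, adjusted p = 0.0783). POLR1B, the second largest subunit, had -0.37 ± 0.05 on the panel mean and was called in MOLM-13, MOLM-14 and SKM-1 (-0.42, -0.58 and -0.60). POLR1A, the largest subunit, had -0.34 ± 0.07. RRN3, the factor that recruits the polymerase, had -0.16 ± 0.05, and its call was lost under 4 alternatives, among them quantile normalization (limma, adjusted p = 0.166). POLR1C, shared with RNA polymerase III, had -0.21 ± 0.11 and was not called. UBTF, which binds the ribosomal DNA promoter, had -0.05 ± 0.06 and was not called either; in OCI-AML3 it stood at 0.33 (limma, adjusted p = 0.16).

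All 4 abundant nucleolar proteins were lower on the panel mean (limma, median -0.33), against 7.52% of all genes. NPM1, a histone and ribosomal protein chaperone, had -0.30 ± 0.04. Its values were 40208, 47037 and 43217 with DMSO and 29174, 33151 and 33487 with decitabine in SKM-1, and it was called there and in MOLM-14 (-0.45 and -0.42). OCI-AML3 gave 32071, 32526 and 30205 with DMSO and 30416, 28498 and 24171 with decitabine, an overlap between the arms. The table holds 46 rows named as NPM1 pseudogenes, so that reads could be split among them. NCL, nucleolin, had -0.35 ± 0.06 and NOLC1, a scaffold of small nucleolar ribonucleoproteins, -0.35 ± 0.06, both called in SKM-1 alone (-0.72 and -0.70). LYAR, a nucleolar zinc finger protein of growing cells (ENSG00000145220.14, chromosome 4 from 4267701 to 4290169 on the minus strand of GRCh38), differed between lines (limma F-test, adjusted p = 0.0206). Its values were 2323, 2571 and 2312 with DMSO and 1469.7, 1470.4 and 1429.5 with decitabine in SKM-1. MOLM-14 had 1161, 1344 and 1189 with DMSO and 733, 1017 and 878 with decitabine, and MOLM-13 1773, 1546 and 1728 with DMSO and 1243, 1378 and 1335 with decitabine. These arms did not overlap, with -0.72 ± 0.13, -0.50 ± 0.13 and -0.35 ± 0.13, of which limma called SKM-1 and MOLM-14. KG-1 gave 1096, 1277 and 1102 with DMSO and 1063, 1481 and 1192 with decitabine and OCI-AML3 791, 885 and 963 with DMSO and 1021, 802 and 729 with decitabine. There the arms overlapped, with 0.09 ± 0.13 and -0.06 ± 0.13. The panel mean of LYAR, -0.31 ± 0.06, lost its call without SKM-1 (limma, adjusted p = 0.0829).

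The box C/D ribonucleoprotein places 2′-O-methyl groups on ribosomal RNA. Its 3 members had the smallest median of the groups, -0.19, and all 3 were called lower (limma), against 7.52% of all genes. NOP58 had -0.30 ± 0.08, NOP56 -0.19 ± 0.05 and FBL, the methyltransferase fibrillarin, -0.17 ± 0.06. Within lines NOP56 was called in SKM-1 (-0.38), and FBL and NOP58 in no line. FBL was near the threshold (limma, adjusted p = 0.0435) and lost the call in 24 of 45 alternatives. NOP56 and NOP58 hold snoRNA genes in their introns, 5 and 4 in GENCODE 29, and how reads of these were counted is not given in the sources used here. The same limit holds for GNL3, with 6 inside the gene, NCL and WDR43, with 3 each, PPAN, with 2, and POLR1C, with 1.

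Small subunit assembly was the role with most calls in single lines. Of its 13 members 10 were lower on the panel mean (limma, median -0.33), 9 in MOLM-14, 8 in SKM-1, 4 in MOLM-13, 3 in OCI-AML3 and 0 in KG-1. The shares among all genes were 7.52%, 4.77%, 3.32%, 1.67%, 1.64% and 0.663% in the same order. Among genes as well expressed as the members they were 19.5%, 10.5%, 9.16%, 5.01%, 3.27% and 1.16%. DDX21, an RNA helicase that couples RNA polymerase I transcription to RNA processing (ENSG00000165732.13, chromosome 10 from 68956128 to 68985073 on the plus strand of GRCh38), had the smallest p of the 40 (limma, adjusted p = 2.15e-13) and a panel mean of -0.49 ± 0.02. MOLM-14 gave 20169.9, 20999 and 19859.9 with DMSO and 12130.5, 12179 and 12181 with decitabine and SKM-1 15491, 16138 and 15346 with DMSO and 9808, 9295 and 9377 with decitabine. MOLM-13 gave 14266, 13545 and 13032 with DMSO and 8996, 9449 and 9016 with decitabine. In these lines the level was 59.8%, 60.6% and 67.3% of DMSO. OCI-AML3 gave 7559.9, 7617 and 7387 with DMSO and 6136, 5958 and 5447 with decitabine, again without overlap (-0.36 ± 0.05). KG-1 gave 7431, 7382 and 7722 with DMSO and 7139.6, 7417 and 7257 with decitabine, where the arms overlapped (-0.05 ± 0.05). The 5 responses differed (limma F-test, adjusted p = 1.37e-06, the smallest of the 40).

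UTP20, a large scaffold of the small subunit processome (ENSG00000120800.5, chromosome 12 from 101280109 to 101386616 on the plus strand of GRCh38), moved by like amounts in 4 lines. In SKM-1 it had 1866, 1674 and 1774 with DMSO and 1154, 1209 and 1134 with decitabine, in MOLM-13 3424, 3493 and 3274 with DMSO and 2384, 2259.9 and 2441 with decitabine. In MOLM-14 the values were 6265, 6308 and 7106 with DMSO and 4483, 4741 and 4803 with decitabine, and in OCI-AML3 3989, 3937 and 3508 with DMSO and 2591, 2664 and 2865 with decitabine. KG-1 gave 4650.0, 4505 and 5283 with DMSO and 4302, 3898 and 4353 with decitabine. In no line did the arms overlap, and limma called the first 4 lines (-0.60 ± 0.08, -0.52 ± 0.08, -0.49 ± 0.08 and -0.49 ± 0.08) but not KG-1 (-0.20 ± 0.08, adjusted p = 0.193). Its panel mean was -0.46 ± 0.03, and a difference between lines was not called (limma F-test, adjusted p = 0.0982).

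DDX10, a DEAD-box helicase of the same precursor (ENSG00000178105.11, chromosome 11 from 108665025 to 108940930 on the plus strand of GRCh38), had a panel mean of -0.38 ± 0.03 and was called in the same 4 lines. Its values in SKM-1 were 4462, 4842 and 4550.1 with DMSO and 2928, 2922 and 3059.6 with decitabine, and in OCI-AML3 2449.7, 2519 and 2304 with DMSO and 1858, 1711 and 1784 with decitabine. MOLM-14 had 2586, 2490.0 and 2656 with DMSO and 1841, 2029.5 and 1841 with decitabine. The arms were apart in each, with levels 64.3%, 73.6% and 73.8% of DMSO. MOLM-13 had 3502, 3364 and 3417 with DMSO and 2782, 2825 and 2811 with decitabine, a smaller gap (-0.29 ± 0.07). In KG-1 the values were 2828, 2502 and 2628 with DMSO and 2331, 2480.5 and 2611 with decitabine and overlapped (-0.10 ± 0.07). The lines differed (limma F-test, adjusted p = 0.00407).

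RRP9, the U3 snoRNA-binding protein (ENSG00000114767.7, chromosome 3 from 51933430 to 51941941 on the minus strand of GRCh38), had a panel mean of -0.39 ± 0.07 and was called in MOLM-14 and SKM-1. MOLM-14 had 496, 634 and 654 with DMSO and 379.8, 442 and 397 with decitabine and SKM-1 860.4, 928 and 977 with DMSO and 668, 615 and 692 with decitabine. MOLM-13 had 972, 1086 and 900.2 with DMSO and 664, 722 and 685 with decitabine, with no overlap and an adjusted p just above the threshold (limma, 0.0585). OCI-AML3 gave 386, 435 and 380.2 with DMSO and 232, 423 and 314 with decitabine and KG-1 431, 451 and 449.6 with DMSO and 414, 464 and 411 with decitabine, both with overlap. PNO1, which holds the small subunit until its last maturation step (ENSG00000115946.8, chromosome 2 from 68157844 to 68176238 on the plus strand of GRCh38), was called lower in 2 lines and stood higher in another. SKM-1 gave 636, 727 and 723 with DMSO and 491, 477 and 421 with decitabine, and MOLM-14 609, 449.6 and 544 with DMSO and 310.4, 393 and 426 with decitabine. These were the lines in which it was called lower (-0.59 ± 0.14 and -0.51 ± 0.14). In OCI-AML3 every treated library exceeded every control, with 403, 319.6 and 436 with DMSO and 486, 449.7 and 496 with decitabine, the only such case among the 40 members in any line and one that 10.1% of all genes showed in OCI-AML3 (0.31 ± 0.14, limma, adjusted p = 0.224, not called). MOLM-13 gave 587, 542 and 551 with DMSO and 451, 489 and 493 with decitabine and KG-1 433, 529.9 and 456 with DMSO and 351, 439 and 464 with decitabine, at -0.23 and -0.18. The difference between lines was called (limma F-test, adjusted p = 0.0204).

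The remaining small subunit members are given by their panel means. UTP15 had a panel mean of -0.34 ± 0.06 and WDR43, which like UTP15 belongs to the processome subcomplex that binds the precursor first, -0.33 ± 0.06. HEATR1, of the same subcomplex, had -0.35 ± 0.07, NAT10, an RNA acetyltransferase, -0.33 ± 0.08, and NOP14 -0.25 ± 0.07. These 5 were called lower on the panel mean. UTP4 and WDR75 belong to the same subcomplex as UTP15, WDR43 and HEATR1 but were not called, with -0.18 ± 0.10 and -0.11 ± 0.06. RRP12 was not called either, with -0.19 ± 0.10.

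Large subunit assembly had 8 of 13 members lower on the panel mean (limma, median -0.31), with 7 in SKM-1, 3 in MOLM-14, 1 each in MOLM-13 and OCI-AML3 and 0 in KG-1. The shares among all genes were 7.52%, 3.32%, 4.77%, 1.67%, 1.64% and 0.663% in the same order. Among genes as well expressed as the members they were 19.5%, 9.16%, 10.5%, 5.01%, 3.27% and 1.16%. BRIX1, which helps to incorporate the 5S ribonucleoprotein (ENSG00000113460.13, chromosome 5 from 34915376 to 34925996 on the plus strand of GRCh38), had -0.42 ± 0.05. MOLM-14 gave 2690.2, 2750.2 and 2786 with DMSO and 1764, 1379.8 and 1881 with decitabine. SKM-1 gave 1818, 2004 and 1936 with DMSO and 1331, 1338 and 1236 with decitabine. Both were called, at 60.6% and 67.8% of DMSO. MOLM-13 gave 2434, 2108 and 2232 with DMSO and 1601, 1787 and 1655 with decitabine and OCI-AML3 3022, 2861 and 3199 with DMSO and 2549.5, 2160.3 and 2769 with decitabine, without overlap but without a call (limma, adjusted p = 0.051 and 0.186). KG-1, with 1561, 1299.5 and 1755 with DMSO and 1470.3, 1206 and 1559 with decitabine, overlapped.

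MRTO4 is a nuclear placeholder for the stalk protein RPLP0 in the precursor of the large subunit (ENSG00000053372.5, chromosome 1 from 19251539 to 19260128 on the plus strand of GRCh38). It had a panel mean of -0.42 ± 0.05 and was one of 3 members, with MYC and UTP20, whose arms were apart in all 5 lines. SKM-1 gave 1689, 1944 and 1888 with DMSO and 985, 1025 and 995 with decitabine, a level 54.6% of DMSO. OCI-AML3 gave 751, 1064 and 899.9 with DMSO and 729, 634 and 679 with decitabine, KG-1 1096, 1143 and 1099 with DMSO and 885, 976 and 862 with decitabine. MOLM-14 gave 1199.9, 1206 and 1196 with DMSO and 932, 1133 and 869.7 with decitabine and MOLM-13 1923, 1891 and 2195 with DMSO and 1641, 1871 and 1675 with decitabine. Limma called SKM-1 (-0.87 ± 0.11) and OCI-AML3 (-0.40 ± 0.11), and the lines differed (F-test, adjusted p = 0.0292).

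BOP1, PES1 and WDR12 form one complex of large subunit maturation and were all called lower on the panel mean, with -0.37 ± 0.10, -0.25 ± 0.06 and -0.37 ± 0.06. BOP1 was called in no single line, PES1 in SKM-1 and WDR12 in MOLM-14 and SKM-1. DDX18, a helicase, had -0.31 ± 0.04 and was called in MOLM-13, MOLM-14 and SKM-1. RRS1, which acts in 5S ribonucleoprotein assembly, had -0.35 ± 0.09 and NIP7 -0.34 ± 0.09. NOP16, DDX56, GNL3, PPAN and NOP2 were not called, with -0.26, -0.22, -0.13, -0.18 and -0.06. GNL3, nucleostemin, spread widely in MOLM-14 (1570.3, 774 and 1712 with DMSO and 1191, 2618 and 1701 with decitabine), where its fold change of 0.45 ± 0.28 was the highest of the 40 in any line. In MOLM-13 it gave 7312, 6982 and 6139.8 with DMSO and 4502, 4945 and 4769 with decitabine, with no overlap. NOP16 was called lower in SKM-1 (-0.75 ± 0.23). In OCI-AML3 its decitabine replicate 1 stood apart (284, 380.4 and 308 with DMSO and 641, 279.8 and 261 with decitabine). PPAN shares its exons with the readthrough gene PPAN-P2RY11, so its value is uncertain.

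The number of members called differed from line to line. In SKM-1 22 of 40 were called lower (3.32% of all genes), in MOLM-14 16 (4.77%), in MOLM-13 8 (1.67%), in OCI-AML3 4 (1.64%) and in KG-1 1, MYC (0.663%). Among genes as well expressed as the members the shares were 9.16%, 10.5%, 5.01%, 3.27% and 1.16%. None was called higher in any line (limma, against 5.70%, 6.26%, 1.45%, 3.74% and 3.12% of all genes; at an unadjusted p below 0.05 there were 2 in OCI-AML3, UBTF and PNO1, and 0 elsewhere). The median member stood at -0.52, -0.41, -0.29, -0.16 and -0.10 in the same order, with all genes between 0.01 and 0.08. The counts of single lines depend on the shared spread, which the shallow libraries of the other 3 lines enter. Without these 6 libraries limma called 34 in SKM-1 (7.62% of all genes in the same fit), 22 in MOLM-14 (6.10%), 19 in MOLM-13 (5.65%), 9 in OCI-AML3 (3.53%) and 1 in KG-1 (1.19%). Fitted alone, SKM-1 gave 38 (13.9%), MOLM-13 29 (9.96%), MOLM-14 2 (0.627%) and KG-1 and OCI-AML3 0 (0.0496% and 0.00902%). The count in MOLM-13 also went down, to 3 without decitabine replicate 1 (0.528%) or DMSO replicate 1 (0.523%), and to 4 under quantile normalization (0.460%).

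The count of members whose 3 treated libraries all lay below the 3 controls needs no model. It was 38 of 40 in SKM-1 (18.9% of all genes), 34 in MOLM-13 (17.0%), 24 in MOLM-14 (9.50%), 10 in OCI-AML3 (7.42%) and 5 in KG-1 (6.44%). For genes as well expressed as the members the shares were 37.5%, 38.8%, 17.6%, 9.41% and 8.19%. In KG-1 the 5 were MYC, NOP56, UTP20, WDR12 and MRTO4. Across lines, with the sister lines MOLM-13 and MOLM-14 counted separately, 24 members were lower without overlap in at least 3 lines (5.26% of all genes). There were 9 in at least 4 (1.46%) and 3 in all 5 (0.235%). Called lower in at least 4 lines were MYC, UTP20, DDX10 and DDX21 (0.194% of all genes), and in all 5 lines 0 members (0.0271%). The response of 7 members differed between lines (limma F-test), against 9.46% of all genes. Below 0 in all 5 lines, with no test, were 24 members (6.41%). For these counts across lines no share was computed for genes as well expressed as the members. In single lines the shares of such genes were above those of all genes.

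**Figure D3:**
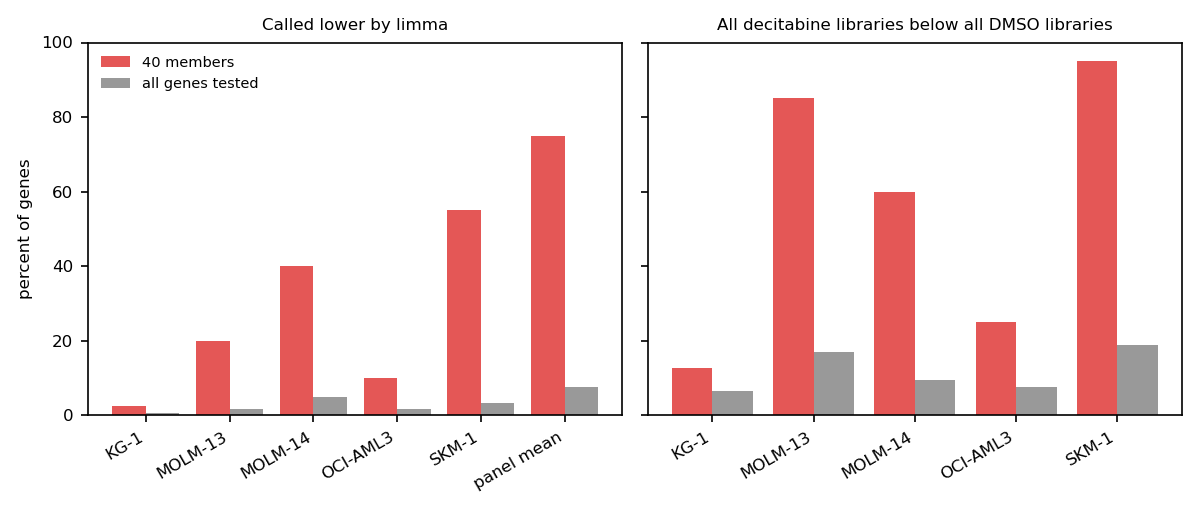
Percent of the 40 members (red) and of all genes tested (grey) called lower by limma in each line and on the panel mean (left), and with all 3 decitabine libraries below all 3 DMSO libraries in each line (right). The red bar exceeds the grey one in every pair, by least in KG-1, where 1 of 40 was called and 5 of 40 were apart.

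As a share of all RNA in the table the 40 genes together shrank in every line. They took 1.01 to 1.06% of the total value in the DMSO libraries of SKM-1 and 0.682 to 0.729% in the decitabine libraries. The ranges were 0.964 to 1.00% and 0.715 to 0.730% in MOLM-14, 0.997 to 1.03% and 0.789 to 0.803% in MOLM-13, 0.786 to 0.787% and 0.626 to 0.687% in OCI-AML3, and 0.971 to 1.02% and 0.882 to 0.889% in KG-1. The arms did not overlap in any line, and the most abundant members weigh most in this sum. The share of mitochondrial genes was higher with decitabine, without overlap, in 3 lines, at 12.5 to 14.1% with DMSO and 18.2 to 19.1% with decitabine in MOLM-13, 13.7 to 15.1% and 15.5 to 18.2% in SKM-1, and 8.06 to 9.09% and 10.5 to 11.5% in MOLM-14. The arms overlapped in KG-1 (10.4 to 12.1% and 11.8 to 12.6%) and OCI-AML3 (8.63 to 11% and 9.97 to 15.6%). Scaled to the total without these genes, 28 members were called lower on the panel mean, and 5 in MOLM-13. The share of all genes called in that fit is not given here.

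**Figure D4:**
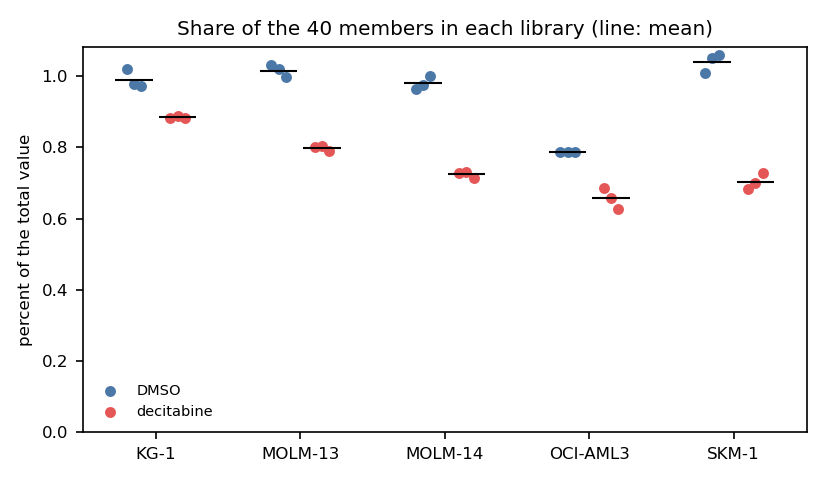
Share of the total value taken by the 40 members (y axis, percent) in each DMSO (blue) and decitabine (red) library by line (x axis), with the mean as a bar. The red points lie below the blue ones in all 5 lines, by least in KG-1.

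Many other factors of ribosome assembly, from lists that do not contain the members, were lower on the panel mean as well. Among all genes 7.52% were called lower and 12.0% higher on the panel mean. Of genes as well expressed as the members 19.5% were called lower. Of 40 other small subunit factors 24 were lower and 0 higher on the panel mean (limma, 0 higher at an unadjusted p below 0.05), with a median of -0.23. They included PDCD11 (-0.36 ± 0.05) and LTV1 (-0.35 ± 0.05), of the small subunit precursor, and TSR1 (-0.33 ± 0.06). Of 44 other large subunit factors 27 were lower and 0 higher (limma, 1 higher at an unadjusted p below 0.05), with a median of -0.21, among them RRP15 (-0.56 ± 0.11), RRP1B (-0.45 ± 0.03) and RPF2 (-0.43 ± 0.12). Both counts leaned on SKM-1: without it limma called 11 and 8, against 4.06% of all genes. In single lines limma called 17 and 16 lower in SKM-1 (3.32% of all genes) and 12 and 12 in MOLM-14 (4.77%). It called 4 and 3 in OCI-AML3 (1.64%), 3 and 2 in MOLM-13 (1.67%) and 0 and 1 in KG-1 (0.663%). The medians in KG-1 were -0.04 and -0.05. Of 12 genes listed for the core and assembly of H/ACA ribonucleoproteins, which guide pseudouridylation, 6 were lower (median -0.21). GAR1 had -0.50 ± 0.10, SHQ1 -0.57 ± 0.19 and NUFIP1, an assembly factor, -0.38 ± 0.06. This list includes assembly factors that are not particular to H/ACA, among them RUVBL1, RUVBL2 and NUFIP1. Its median was 0.12 in OCI-AML3, where 3 of 12 were below 0, and -0.44 to -0.16 in the other lines. Of 15 genes of the RNA exosome and 5′ processing 8 were lower (median -0.22), the exosome subunits EXOSC8 (-0.49), EXOSC6 (-0.39) and EXOSC9 (-0.38) by most.

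RNA polymerase genes outside the members were mostly not called. Among all genes 7.52% were called lower and 12.0% higher on the panel mean. Among genes as well expressed as the members 19.5% were called lower. Of 16 other genes of RNA polymerase I 4 were lower (median -0.15), with POLR1E at -0.34 ± 0.04, MYBBP1A at -0.33 ± 0.09 and POLR2E, a subunit shared by all 3 polymerases, at -0.25 ± 0.06. This count ran from 2 to 7 over the alternatives. Of 21 genes of RNA polymerase III, which makes 5S ribosomal RNA and transfer RNA, 5 were lower and 1 higher (median -0.16, 3 to 9 lower over the alternatives). POLR3G had -0.61 ± 0.12 and GTF3C4 -0.21 ± 0.04, while GTF3C5 was higher, by 0.28 ± 0.06.

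Genes of the ribosomal proteins themselves were not called. Of 46 genes of the large and 32 of the small subunit limma called 0 in either direction on the panel mean. At an unadjusted p below 0.05 there were 2 lower and 1 higher in the large subunit and 0 in the small. The medians were 0.02 and 0.01, within a range from -0.14 to 0.25 over the single genes of both lists. Over the alternatives at most 2 large subunit genes were called lower and 1 higher, and at most 1 in each direction of the small subunit. In SKM-1, the line with the lowest median of the 40 members, the medians were -0.12 and -0.08 with 0 called (limma). In KG-1 they were -0.10 and -0.09, and the median of the 40 members was -0.10 there too. In MOLM-13 they were 0.15 and 0.10, with 2 large subunit genes called higher, in MOLM-14 0.04 and 0.06 and in OCI-AML3 0.12 and 0.09, with 0 called in either (limma). Ribosomal protein genes have many processed pseudogenes, and their values are uncertain to the extent that reads were split.

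**Figure D5:**
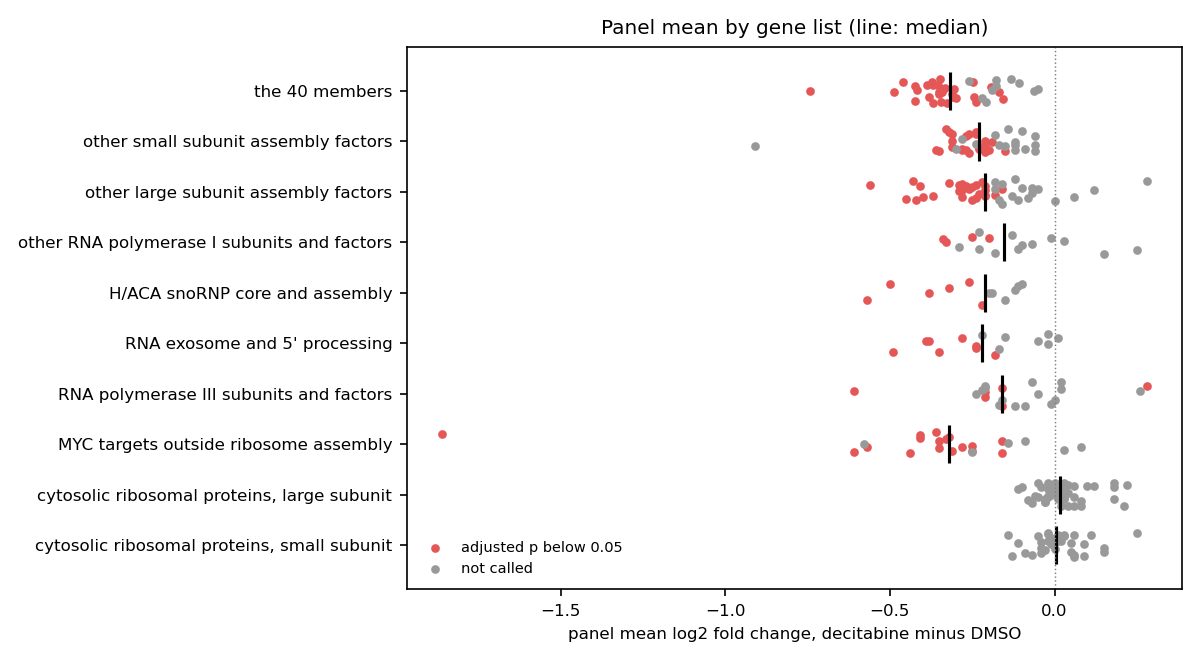
Panel mean log2 fold change (x axis) of each gene in 10 lists (rows), red where limma's adjusted p was below 0.05 and grey where not, with the median as a black line. The medians of the 40 members and of the other lists from small subunit factors to RNA polymerase III lie left of 0, from -0.15 to -0.32, with single genes up to 0.28, and those of both ribosomal protein lists lie at 0.02 and 0.01.

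Other gene groups moved with the treatment, where 7.52% of all genes were called lower and 12.0% higher on the panel mean. Of genes as well expressed as the 40 members, 19.5% were called lower. Of 22 DNA replication genes 19 were lower (limma, median -0.27), with MCM6 and MCM5 of the replicative helicase at -0.55 ± 0.04 and -0.50 ± 0.07 and the clamp loader RFC3 at -0.53 ± 0.05. Of 13 tested monocyte and macrophage markers 10 were higher and 0 lower (limma, median 0.97), among them S100A8 (2.05 ± 0.22) and CD86 (1.84 ± 0.10). In SKM-1 8 of the 13 were higher and 1 lower (limma, against 5.70% and 3.32% of all genes). The DMSO median of S100A8 was 2104 in SKM-1 and 3 to 40.65 in the other lines, so its panel mean includes low values. The summed level of all 14 listed markers went from 25054 to 26621 with DMSO to 44883 to 45843 with decitabine in SKM-1 and from 6589.5 to 6979 with DMSO to 15394 to 16386 with decitabine in MOLM-14. It went from 9527 to 10142 with DMSO to 19358 to 20206 with decitabine in MOLM-13, from 7424 to 8689 with DMSO to 17029 to 20822 with decitabine in OCI-AML3 and from 2856 to 2982 with DMSO to 3904 to 4046 with decitabine in KG-1. Their part in the result was not tested. Of 7 myeloid identity genes 3 were higher and 1 lower (limma), with MPO at 1.40, CD34 at 0.80 and FLT3 at -0.15. The DMSO median of MPO was 41591 in SKM-1 and 37.4 to 345 in the other lines. That of CD34 was 28785 in KG-1 and 4.9 to 87.8 in the other lines. A panel mean weighs the lines alike and so says little of the line where the gene is high. The summed level of these 7 was lower with decitabine, without overlap, in 3 lines, going from 55512 to 56569.8 with DMSO to 37718 to 47262 with decitabine in SKM-1, from 40415 to 43963 with DMSO to 35130.3 to 37659 with decitabine in KG-1 and from 18734 to 19314 with DMSO to 17128 to 18437 with decitabine in MOLM-13. The arms overlapped in the other two lines, at 15351 to 16355 with DMSO and 16116 to 17411 with decitabine in MOLM-14 and at 14341 to 15808 with DMSO and 15477 to 16926 with decitabine in OCI-AML3. Of other cell types, 2 of 4 lymphoid markers were higher, among them CD3E (1.05), and 0 of 1 erythroid, 2 epithelial and 2 fibroblast markers tested were called (limma, 0 at an unadjusted p below 0.05). The DMSO median of CD3E was 189.0 in KG-1 and at most 1.15 in the other lines, so its panel mean includes values near 0. EPCAM, an epithelial marker, had a DMSO median of 501.8 in SKM-1 and at most 1.64 in the other lines.

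Before treatment the members were not at one level across lines. With DMSO 37 of the 40 differed between lines, against 77.9% of all genes (limma F-test), all but NIP7, NOP58 and WDR75. The highest line mean was 1.24 to 5.21 times the lowest, with a median of 1.87. MOLM-13 was highest for 15 members and OCI-AML3 lowest for 24. For MYC the order was MOLM-13 (10503 ± 482, SD, n = 3), KG-1 (9919 ± 1408), MOLM-14 (8748 ± 989), SKM-1 (5858 ± 356) and OCI-AML3 (2838 ± 266). MOLM-13 and KG-1, and KG-1 and MOLM-14, overlapped in their libraries, and the lower steps did not. GNL3 had the widest range, from OCI-AML3 to MOLM-13, and UTP20 the next, from SKM-1 to MOLM-14. BRIX1 and TWISTNB were the 2 members highest in OCI-AML3. Line and library depth cannot be told apart in these levels, and the deep lines also stand under a separate run of sample numbers.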

How the data were processed

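Total RNA was sequenced with a strand-marking kit as single-end 50 bp reads after ribosomal RNA removal, per the labels' protocols. Each deposited value is a normalised signal of one gene, which the table's own name describes as the authors' estimated count after DESeq2 normalization. The submitters' processing notes name hg38 as build and DESeq2, featureCounts, limma, STAR and Salmon 1.2.1 as tools, without the role of each. Between 44.2% and 68.7% of a library's low values were whole multiples of its step (tolerance 0.02), too few to rebuild read counts, and so count models were not used. Depth is a library's total divided by its step. Columns of SKM-1 and MOLM-13 are named in the labels, while the columns of the other 3 lines were assigned from the line, letter and number in their names. The design text of the series does not list MOLM-14, which only the sample labels give. A further 12 columns belong to no labelled sample and were not used.

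Values were analysed as log2(value + 1), so that a fold change understates the change of low genes. For the 22168 genes that reached 10 in 3 or more libraries, a linear model with 10 means (5 lines, 2 treatments) was fitted in limma 3.58.1 (R 4.3.3, statmod 1.5.0), moderated variances with trend and robust estimation and 20 residual degrees of freedom. P-values were Benjamini-Hochberg adjusted within each contrast and called below 0.05. The code was tested on simulated data. Members, gene lists and tests were chosen with earlier results of these data known, so that no count of a list is independent evidence. Values in every library are given for MYC, the 8 members with the largest panel means among those called, the 2 largest called in each line and the 5 with the largest F between lines, and for GNL3, NOP16 and NPM1, chosen after their values were seen. From each other list the 3 largest called panel means are named, except for marker genes not reported here. HUWE1 and MAX were named after their values were seen.

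Alternatives were other pseudocounts, filters and scalings, library weights, a replicate block, single lines and leaving out libraries or lines. Positions come from GENCODE 29 and promoter sequences from RefSeq. The annotation release and strand setting of the counting are not given in the sources used here: 18 members overlap a gene on the other strand, 6 one on the same strand, 7 hold snoRNA genes and 10 have rows named as their pseudogenes.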

Additional observations from a re-analysis of the deposited data

Results flagged for a closer look

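The response of 7 members differed between the 5 lines by limma's F-test over all 22168 genes, a test that 9.46% of all genes passed. The adjusted p was 1.37e-06 for DDX21, 1.01e-05 for MYC, 0.00407 for DDX10, 0.0204 for PNO1, 0.0206 for LYAR, 0.0292 for MRTO4 and 0.0312 for TWISTNB. The log2 fold change ran from -0.74 in MOLM-14 to -0.05 in KG-1 for DDX21, and from -1.32 in SKM-1 to -0.29 in OCI-AML3 for MYC. DDX10 ran from -0.64 in SKM-1 to -0.10 in KG-1, and LYAR from -0.72 in SKM-1 to 0.09 in KG-1. PNO1 ran from -0.59 in SKM-1 to 0.31 in OCI-AML3, MRTO4 from -0.87 in SKM-1 to -0.21 in MOLM-13 and TWISTNB from -1.09 in MOLM-13 to 0.04 in OCI-AML3. Lines with deep and lines with shallow libraries are different lines, and line and depth cannot be told apart. The deep lines, SKM-1 and MOLM-13, also stand under a run of sample numbers apart from that of the other lines. Any difference between these sets of samples cannot be told apart from line or depth either.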

How the results depend on the processing

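No result changed sign with its call. On the panel mean the count of members called lower ran from 25 to 35 over the alternatives other than leaving out SKM-1, which gave 19, and from 29 to 31 without single libraries. Of the 30 members called, 18 kept the call in all 45 alternatives. In KG-1 the count was 0 with that line alone and 0 to 1 without single libraries. In MOLM-13 (8) it was 4 under quantile normalization, 5 scaled to the total without mitochondrial genes, 30 with library weights, 19 without the shallow libraries, 29 with that line alone and 3 to 6 without single libraries. In MOLM-14 (16) it was 2 with that line alone and 12 to 19 without single libraries. In OCI-AML3 (4) it was 9 without the shallow libraries, 0 with that line alone and 3 to 5 without single libraries, and the count higher was 0 to 1 (1 without DMSO replicate 3). In SKM-1 (22) it was 37 with library weights, 34 without the shallow libraries, 38 with that line alone and 17 to 19 without single libraries. Members that differed between lines numbered 22 with library weights, 14 without the shallow libraries and 5 to 9 without single libraries, and the count differing with DMSO was 35 to 38. Replicate numbers were not taken to pair the samples, as same-numbered libraries correlated with r over 0.1 in only 6 of 15 pairs and in no line in every pair. They correlated with r from 0.0703 to 0.153 in MOLM-14, OCI-AML3 and KG-1, where replicate 2 of both arms was shallow, and from -0.0225 to 0.0408 in MOLM-13 and SKM-1, and 24 of 30 libraries correlated best with their own number. With a replicate block 33 members were called on the panel mean, 30 in SKM-1, 23 in MOLM-14, 14 in MOLM-13, 5 in OCI-AML3 and 1 in KG-1, and 12 differed between lines. Shares of all genes are given only for the fits named with them above. For the other alternatives, among them library weights and the replicate block, a general change in calls cannot be told from one in members. Quantile normalization moved the median of all genes in SKM-1 from 0.08 to -0.08 (members -0.50). The cause was not tested for any of these. How depth limits the single lines was not tested beyond leaving out the shallow libraries. Alternatives for the other gene lists were added after seeing the data.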
